A study of Homo sapiens with 9 samples.

Results

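Messenger RNA levels of 10 enzymes and partner proteins of DNA methylation and Polycomb repression were followed in the renal carcinoma line ACHN, an established human cell line, after CRISPR targeting of ELOVL5. ELOVL5 is an enzyme that adds carbons to polyunsaturated fatty acids. The 10 genes were chosen by name, for what their proteins do: DNMT1, UHRF1, DNMT3A, DNMT3B, TET1, TET2, TET3, EZH1, EZH2 and SUZ12. All 10 were among the 57773 features of the deposited table, and all 10 were among the 12985 features tested, those with a mean signal of at least 10 over the 9 libraries. KO#1 and KO#2 cells were made with CRISPR/Cas9 and 1 or the other of 2 guides against ELOVL5, and sgControl is the control guide, with 3 libraries each. All groups came from the same line and differed, as far as the labels say, in the guide alone. The labels do not tell whether the KO cells were single clones or pools, nor whether the libraries of a group came from separate cultures, so that p-values here measure only how far these samples spread, and that spread may be technical. Replicate numbers follow accession order within a group and pair no libraries.

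DNMT1 copies methyl groups from the parental to the new DNA strand after replication, and UHRF1 brings it to hemimethylated sites; DNMT3A and DNMT3B set methylation on unmethylated DNA, and the TET dioxygenases oxidize 5-methylcytosine, the first step of its removal. EZH1 and EZH2 are the alternative catalytic subunits of Polycomb repressive complex 2, which methylates histone H3 on lysine 27, and SUZ12 is a core subunit that the complex needs. EZH2 and UHRF1 are known to be expressed mostly in dividing cells and EZH1 also in resting cells, and in renal cell carcinoma genes of chromatin regulation are often mutated.

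UHRF1, EZH2 and SUZ12 are shown with their promoters because they were the members that were highest in the same 1 of the 3 libraries in every group, as given with their values further on; they were picked after those values had been seen. The sequences are from RefSeq (GRCh38.p14), each the 250 bases before the most upstream annotated start, 5′ to 3′ on the gene's strand. All 10 members had such a window. UHRF1 lies on the plus strand (chr19:4909251-4909500), SUZ12 on the plus strand (chr17:31936757-31937006) and EZH2 on the minus strand (chr7:148884292-148884541). Capitals mark the CCAAT box (CCAAT or its complement ATTGG), bound by the factor NF-Y, and the E2F-type words TTTCCCGC, TTTGGCGC, TTTCGCGC and TTTGCCGC, read on both strands; no match overlapped another.
UHRF1: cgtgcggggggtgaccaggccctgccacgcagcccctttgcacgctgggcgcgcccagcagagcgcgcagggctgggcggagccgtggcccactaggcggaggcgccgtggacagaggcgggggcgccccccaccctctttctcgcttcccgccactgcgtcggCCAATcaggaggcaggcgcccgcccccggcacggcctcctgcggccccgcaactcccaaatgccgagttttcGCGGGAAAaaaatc
SUZ12: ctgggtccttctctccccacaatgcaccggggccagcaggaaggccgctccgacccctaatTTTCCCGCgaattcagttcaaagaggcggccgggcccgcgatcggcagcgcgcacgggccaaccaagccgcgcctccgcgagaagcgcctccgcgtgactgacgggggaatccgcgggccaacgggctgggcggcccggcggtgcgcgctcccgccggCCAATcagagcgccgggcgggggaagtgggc
EZH2: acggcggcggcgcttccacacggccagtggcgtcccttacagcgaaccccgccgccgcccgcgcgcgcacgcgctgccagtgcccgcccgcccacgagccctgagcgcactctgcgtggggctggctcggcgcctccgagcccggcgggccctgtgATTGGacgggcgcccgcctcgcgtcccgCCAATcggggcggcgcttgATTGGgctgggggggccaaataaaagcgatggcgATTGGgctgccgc
UHRF1 and SUZ12 each held 1 E2F-type word and 1 CCAAT box. EZH2 held 4 CCAAT boxes and no E2F-type word in this window. Of the other members, EZH1 had 1 E2F-type word, DNMT3B had 1 CCAAT box, and DNMT1, DNMT3A, TET1, TET2 and TET3 had neither. Among all 35116 windows of 250 bases, 2.79% held an E2F-type word and 32.0% a CCAAT box. These shares were not matched for base composition. The GC content was 73.2% for UHRF1, 72.8% for SUZ12 and 75.6% for EZH2, beside a median of 58.0% over all windows. A match is a run of letters and no evidence of binding.

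ELOVL5 itself had a quantile-normalized signal of 805, 1345 and 1016 in KO#1, 434, 1805 and 910 in KO#2 and 1999, 2713 and 2063 in sgControl. All 6 KO libraries lay below all 3 sgControl libraries. The log2 fold change, on log2(signal + 1) here and throughout, was −1.11 (SE 0.467, adjusted p = 0.383) with KO#1 and −1.32 (SE 0.467, adjusted p = 0.240) with KO#2, neither of which passed the test. KO#2 replicate 1 stood apart from the other libraries. Across tested features its log2 values correlated with those of the other KO#2 libraries at 0.672 and 0.737, where libraries of KO#1 and of sgControl correlated within their group at 0.958 to 0.978. Without it, ELOVL5 passed in KO#1 (adjusted p = 0.0314) and not in KO#2 (log2 fold change −0.80, adjusted p = 0.162). The total signal was 8625043.6 in each library by the authors' normalization, so the raw depth behind any value is unknown. The renal lineage factors PAX8 and PAX2 and the epithelial keratins KRT8 and KRT18 were present in all 9 libraries, while CDH6 and LRP2 were listed at 0 throughout. Of the blood cell markers CD3E was listed at 0 in every library, PTPRC reached 0.889 (in KO#2), and CD14 reached 3.0 in KO#1, 17 in KO#2 and 1.44 in sgControl. The endothelial gene VWF reached 3.78 in KO#1, 15.4 in KO#2 and 25.1 in sgControl, and the endothelial gene CDH5 0.444, 1.0 and 0. Of the fibroblast genes COL1A1 reached 102 in KO#1, 45.9 in KO#2 and 66.8 in sgControl, and PDGFRB 37.7, 67.3 and 66.4. COL3A1, also of the fibroblast genes, reached 1.56 in KO#1, 0 in KO#2 and 0.889 in sgControl. The part of such cells in the results was not tested. In bulk RNA, fewer cells of a kind and less RNA per cell cannot be told apart.

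None of the 10 genes passed the test in either KO group. The count was 0 of 10 in KO#1 against sgControl, where 2.33% of all tested features were called, and 0 of 10 in KO#2 against sgControl, where 2.04% were called (limma, Benjamini-Hochberg adjusted p under 0.05 over all tested features). It was also 0 of 10 for the mean of both guides, against 3.1% of features, and 0 of 10 for KO#2 against KO#1, against 0.0% of features. At an unadjusted p under 0.05 there were 0 members in KO#1, 2 in KO#2 (DNMT1 and DNMT3B), 1 for the mean (DNMT3B) and 0 between the guides. Of all tested features 11.3%, 13.5%, 14.2% and 4.07% had such a p in the same order. Without KO#2 replicate 1 the adjusted counts were again 0 of 10 in all 4 comparisons, beside 12.3%, 8.02%, 14.6% and 0.1% of all features in the same order. Counted by libraries that did not overlap, 0 members were above and 1 (TET3) was below sgControl in KO#1, where 18.2% of tested features were above and 15.9% below. In KO#2 1 member (DNMT3B) was above and 2 (DNMT1 and TET3) were below, beside 9.62% and 8.34% of features. Over all 6 KO libraries 0 were above and 1 (TET3) was below, beside 6.61% and 5.9%, and between KO#2 and KO#1 0 members were apart, beside 4.45% of features above and 4.49% below. The median log2 fold change of the members was −0.17 in KO#1 and −0.44 in KO#2, beside 0.03 and −0.01 over all tested features, and 8 of 10 members had a negative value with each guide. The 95% interval of a member reached 0.98 log2 units (median) to each side before adjustment over all features, and uncalled differences were as large as 1.16 (DNMT3B in KO#2).

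**Figure D1:**
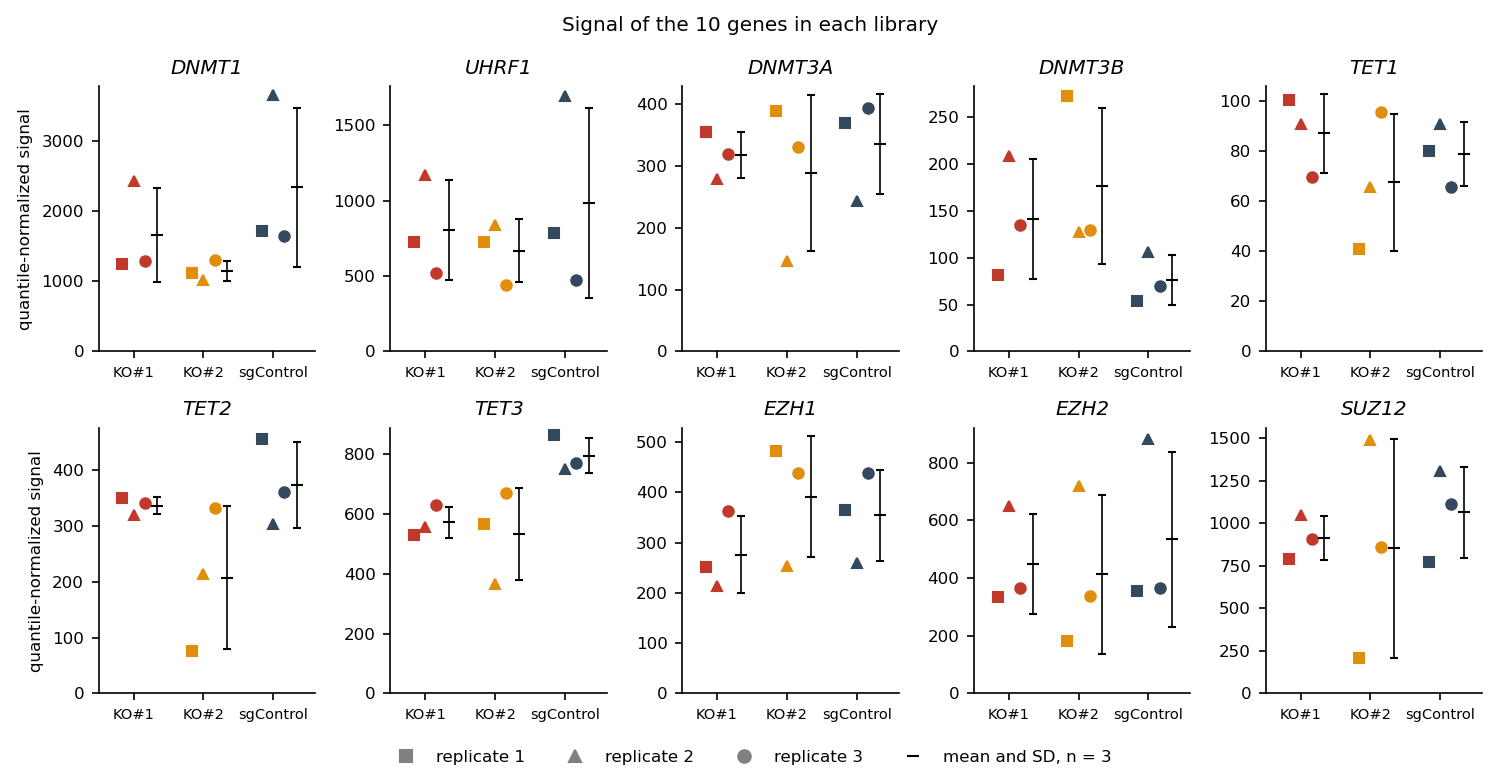
Quantile-normalized signal of the 10 genes (y axis, linear, a scale for each gene) in the 3 libraries of KO#1, KO#2 and sgControl; symbols mark the replicate, and bars the mean and SD (n = 3). TET3 is lower in all 6 KO libraries than in any sgControl library, DNMT1 is lower in all 3 KO#2 libraries, and DNMT3B is higher in all 3 KO#2 libraries.

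The pair that maintains methylation gave its lowest mean values in KO#2. DNMT1, the maintenance methyltransferase, had a signal of 1253, 2426 and 1294 in KO#1, 1115, 1021 and 1301 in KO#2 and 1721, 3651 and 1647 in sgControl. The KO#2 libraries were all below the sgControl libraries, while in KO#1 replicate 2 was above 2 of the sgControl libraries. The log2 fold change was −0.93 in KO#2 (SE 0.390, 95% interval −1.80 to −0.07, unadjusted p = 0.0365, adjusted p = 0.327) and −0.47 in KO#1 (95% interval −1.33 to 0.40, adjusted p = 0.841). UHRF1, the reader of hemimethylated DNA, had 725, 1174 and 519 in KO#1, 728, 840 and 438 in KO#2 and 785, 1695 and 477 in sgControl. All 3 groups overlapped, and replicate 2 was the highest and replicate 3 the lowest library in each. UHRF1 differed by −0.17 (SE 0.495, adjusted p = 1.00) in KO#1 and by −0.41 (adjusted p = 0.715) in KO#2 on the log2 scale, smaller than its SE in both.

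Of the methyltransferases that act on unmethylated DNA, DNMT3B had positive differences with both guides, and DNMT3A had differences smaller than their SE. DNMT3B had a signal of 81.1, 208 and 134 in KO#1, 272, 127 and 129 in KO#2 and 53.3, 106 and 69.6 in sgControl. All KO#2 libraries and 2 of the 3 KO#1 libraries were above the highest sgControl library; KO#1 replicate 1 was within the sgControl range. The log2 fold change of DNMT3B was 1.16 in KO#2 (SE 0.477, 95% interval 0.10 to 2.22, unadjusted p = 0.0346, adjusted p = 0.319) and 0.83 in KO#1 (95% interval −0.22 to 1.89, adjusted p = 0.618). Without KO#2 replicate 1, the library with the highest DNMT3B, it was 0.80 in KO#2 (adjusted p = 0.282) and 0.83 in KO#1 (adjusted p = 0.177). Weighting each library by its estimated precision, which gave KO#2 replicate 1 a weight of 0.0547 where the others had 0.508 to 2.52, called DNMT3B in KO#1 (adjusted p = 0.0342) and was the only alternative that called any member. DNMT3A, its close relative, had 355, 280 and 319 in KO#1, 389, 146 and 332 in KO#2 and 369, 243 and 394 in sgControl. The groups overlapped, with replicate 2 the lowest of each. The differences of DNMT3A were −0.05 (SE 0.407, adjusted p = 1.00) in KO#1 and −0.30 (adjusted p = 0.750) in KO#2 on the log2 scale.

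Of the dioxygenases, TET3 was the member whose KO and sgControl libraries were apart with both guides. TET3 had a signal of 529, 558 and 632 in KO#1, 566, 367 and 670 in KO#2 and 864, 752 and 773 in sgControl. Every KO library was below every sgControl library. TET3 differed by −0.48 (SE 0.304, 95% interval −1.15 to 0.20, adjusted p = 0.699) in KO#1 and by −0.62 (95% interval −1.29 to 0.06, adjusted p = 0.416) in KO#2 on the log2 scale, and neither passed the test. TET2, often mutated in blood cancers, had 350, 319 and 342 in KO#1, 76.6, 215 and 332 in KO#2 and 457, 303 and 361 in sgControl. Its KO#1 values lay inside the sgControl range, and KO#2 replicate 1 was far below all other libraries. The log2 fold change of TET2 in KO#2 was −1.06 (SE 0.482, adjusted p = 0.372) and −0.46 (SE 0.256, adjusted p = 0.322) without that library, and it was −0.13 (adjusted p = 1.00) in KO#1. TET1, the family member best known from embryonic stem cells, had 100, 90.9 and 69.7 in KO#1, 41.0, 65.8 and 95.7 in KO#2 and 80.1, 90.9 and 65.6 in sgControl. The groups overlapped, and the differences of TET1 were 0.14 (SE 0.407, adjusted p = 1.00) in KO#1 and −0.29 (adjusted p = 0.757) in KO#2 on the log2 scale, the second 0.02 without KO#2 replicate 1.

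**Figure D2:**
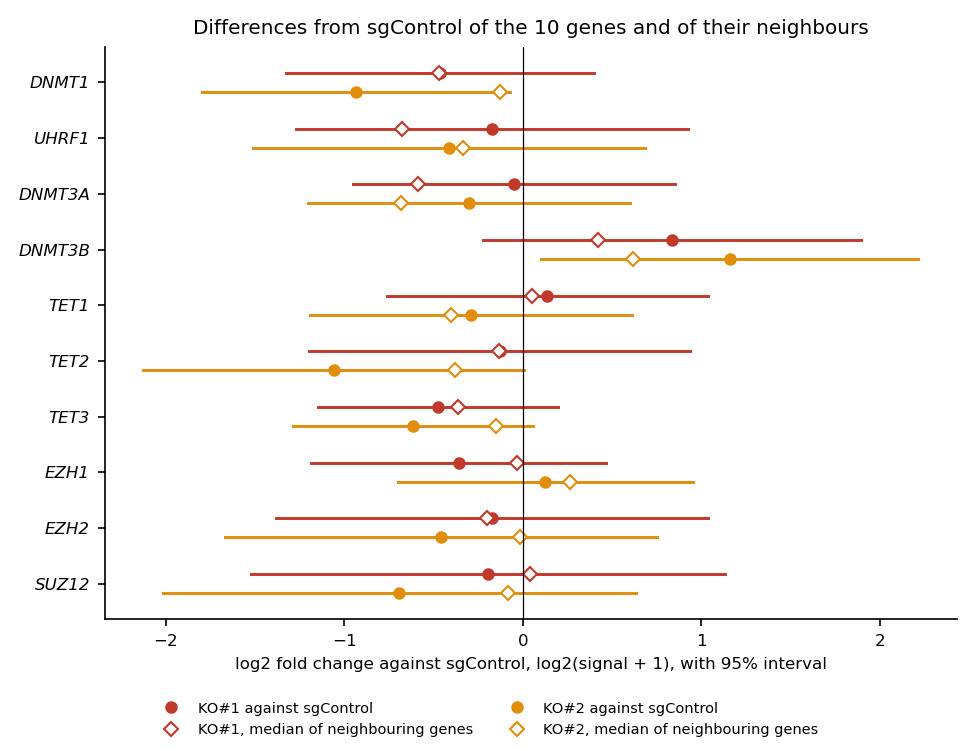
Log2 fold change of each gene against sgControl (x axis) with its 95% interval, for KO#1 and KO#2; open diamonds give the median difference of the genes that neighbour it on the chromosome. The interval excludes 0 in KO#2 alone, for DNMT1 (−1.80 to −0.07) and DNMT3B (0.10 to 2.22), before adjustment over all tested features.

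The subunits of Polycomb repressive complex 2 differed more between the libraries of a group than between groups. EZH2, the catalytic subunit of dividing cells, had a signal of 334, 649 and 366 in KO#1, 181, 719 and 336 in KO#2 and 354, 882 and 365 in sgControl. Replicate 2 was the highest library of each group, and the remaining libraries overlapped apart from a low KO#2 replicate 1. EZH2 differed by −0.17 (SE 0.546, adjusted p = 1.00) in KO#1 and by −0.46 (adjusted p = 0.715) in KO#2 on the log2 scale, the second 0.02 without KO#2 replicate 1. EZH1, the paralogous catalytic subunit, had 252, 214 and 362 in KO#1, 482, 254 and 439 in KO#2 and 366, 259 and 438 in sgControl. Replicate 2 was the lowest library of each group. EZH1 differed by −0.36 (SE 0.373, adjusted p = 0.915) in KO#1 and by 0.12 (adjusted p = 0.894) in KO#2, with overlapping groups. SUZ12, the core subunit, had 791, 1047 and 908 in KO#1, 207, 1493 and 861 in KO#2 and 776, 1307 and 1112 in sgControl. KO#2 held both the highest and the lowest library, and the KO#2 difference was −0.69 (SE 0.599, adjusted p = 0.626) with all libraries and 0.12 (SE 0.293, adjusted p = 0.847) without replicate 1; in KO#1 it was −0.19 (adjusted p = 1.00). SUZ12P, a pseudogene similar in sequence to SUZ12, had a signal of 53.4 to 97.3 in the 9 libraries, so reads may have been shared between them. EZH2P1 and TET1P1 were listed at 0 in every library, and TET2-AS1 reached 1.56.

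Leaving out 1 library in turn, or another scaling or correction, gave both signs for 5 of 10 members in KO#1 and for 6 of 10 in KO#2. The members with 1 sign in every setting tried were DNMT3B, TET1, TET3, EZH1 and SUZ12 in KO#1, and DNMT1, DNMT3B, TET2 and TET3 in KO#2. DNMT3B ranged from 0.42 to 1.18 in KO#1 and from 0.54 to 1.61 in KO#2 over these settings, and TET3 from −0.55 to −0.11 and from −0.80 to −0.37.

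One library of each group, numbered 2, stood out for 5 of the members. UHRF1, EZH2 and SUZ12 were highest in it in all 3 groups, as were 11.2% of tested features, and DNMT3A and EZH1 were lowest in it in all 3 groups, as were 13.1% of tested features. UHRF1 in that library was 1.89 times the mean of the other libraries of its group in KO#1, 1.44 times in KO#2 and 2.69 times in sgControl. EZH2 was 1.85 times, 2.78 times and 2.46 times the mean of the others in KO#1, KO#2 and sgControl. DNMT1 was 1.91 times the mean of the others in KO#1, 0.845 times in KO#2 and 2.17 times in sgControl, so in KO#2 it did not share the peak. A list of 29 proliferation genes was on average highest in replicate 2 of each group, like UHRF1, EZH2 and SUZ12 and unlike DNMT3A and EZH1. Its mean log2 signal in replicates 1, 2 and 3 was 8.40, 9.63 and 8.27 in KO#1, 8.69, 9.70 and 7.84 in KO#2 and 8.39, 9.68 and 8.14 in sgControl, and replicate 2 was highest in its group for 26 of 29 genes in KO#1, 18 of 29 in KO#2 and 29 of 29 in sgControl. The proliferation marker MKI67 had a signal of 1447, 11438 and 1790 in KO#1, 593, 3303 and 1107 in KO#2 and 3651, 15284 and 2558 in sgControl. The part of proliferation in the members' values was not tested, beyond the fits that left out replicate 2 of each group or took the list's mean as a covariate: both called 0 of 10 members in all 4 comparisons.

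**Figure D3:**
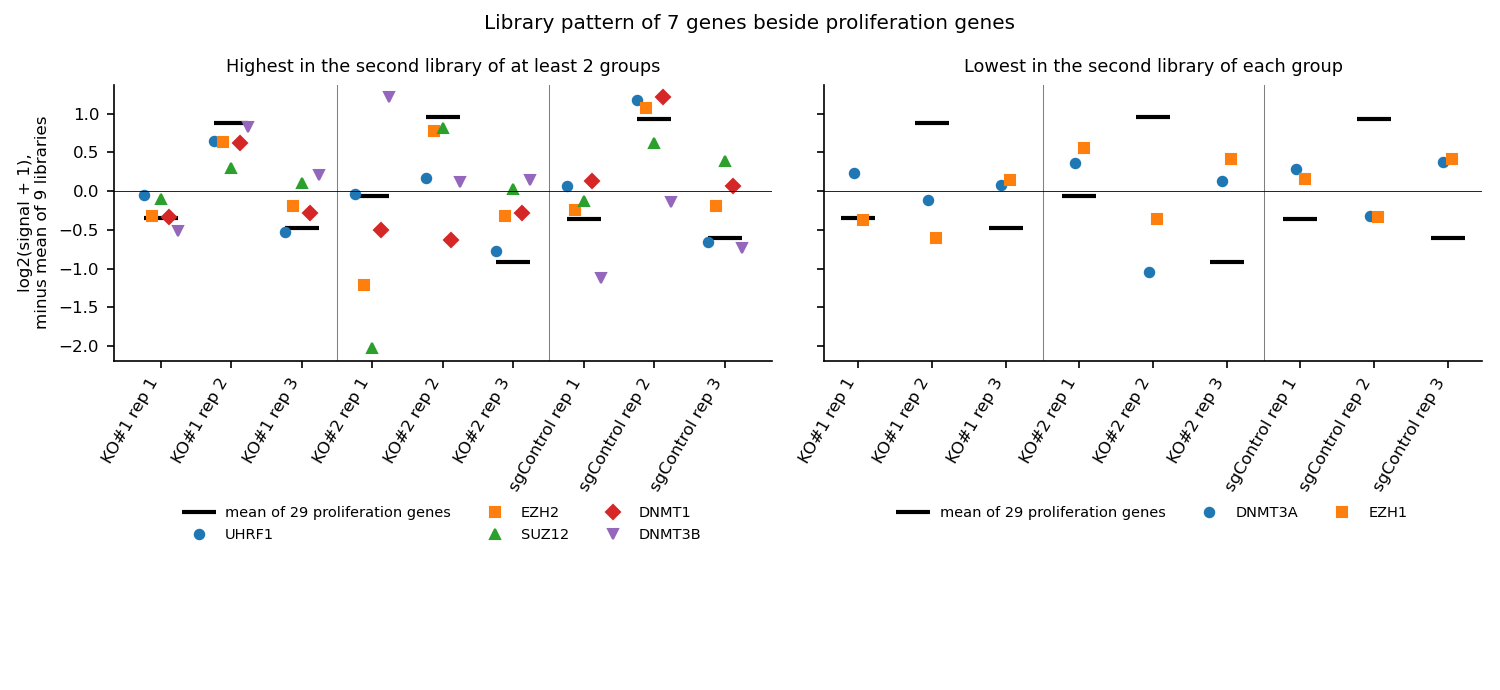
Log2(signal + 1) of 7 members, minus each gene's mean over the 9 libraries (y axis), by library (x axis), with black bars for the mean of 29 proliferation genes. UHRF1, EZH2 and SUZ12 are highest in replicate 2 of each group together with the proliferation genes, DNMT1 and DNMT3B in KO#1 and sgControl alone, and DNMT3A and EZH1 are lowest there.

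Ratios of related genes within a library do not depend on the library's scale. The log2 ratio of DNMT3B to DNMT3A averaged −0.98 ± 0.72 in the 6 KO libraries and −2.15 ± 0.84 in the 3 sgControl libraries (SD), a difference of 1.17 (exact permutation test, two-sided, p = 0.0595, adjusted p = 0.60 over the 12 tests made of 4 ratios). Its KO range of −2.11 to −0.20 overlapped the sgControl range of −2.77 to −1.19. The ratio of UHRF1 to DNMT1 averaged −0.94 ± 0.47 in the KO libraries and −1.34 ± 0.39 in the sgControl libraries, a difference of 0.41 (exact permutation p = 0.214, adjusted 0.60). The ratio of EZH2 to EZH1 averaged 0.29 ± 1.15 in the KO libraries and 0.48 ± 1.11 in the sgControl libraries, a difference of −0.20 (exact permutation p = 0.833, adjusted 0.982). The ratio of TET3 to TET2 averaged 1.16 ± 0.85 in the KO libraries and 1.11 ± 0.20 in the sgControl libraries, a difference of 0.05 (exact permutation p = 0.988, adjusted 0.988). The smallest p the design allows is 0.0119 for 6 against 3 libraries and 0.10 for 1 guide against sgControl, and only the ratio of TET3 to TET2 in KO#1, with a difference of −0.35, reached 0.10 (adjusted 0.60).

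Per kilobase of the longest GENCODE v29 protein-coding transcript, DNMT1, SUZ12, UHRF1 and EZH2 had the higher mean signals. In sgControl the signal per kilobase was 433 ± 210 for DNMT1, 237 ± 59.8 for SUZ12, 229 ± 147 for UHRF1 and 202 ± 114 for EZH2 (SD, n = 3). These 4 neighbours in the order overlapped within their SD. UHRF1 and EZH2 also overlapped the next gene, EZH1, within their SD. EZH1 at 76.6 ± 19.5 and TET3 at 69.9 ± 5.22 were next and did not differ from each other beyond their SD. They were followed by TET2 at 36.8 ± 7.65 and DNMT3A at 35.3 ± 8.53, which did not either. DNMT3B at 17.6 ± 6.19 and TET1 at 8.49 ± 1.37 were the lowest, each apart from its neighbours in the order by more than their SD. In the KO groups DNMT3B had a mean signal per kilobase of 32.6 in KO#1 and 40.6 in KO#2, beside 33.5 and 30.4 for DNMT3A. The sources used here do not give the authors' transcript models, so this order holds for these lengths.

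Genes along the chromosome moved with some of the members. For each member the median deviation of the 10 tested genes on either side, by the gene order of RefSeq GRCh38.p14, was taken in each library. For DNMT3B the neighbours' median was 0.42 higher in KO#1 than in sgControl and 0.62 higher in KO#2, and with it subtracted the DNMT3B difference was 0.42 (adjusted p = 0.792) and 0.54 (adjusted p = 0.527). For DNMT1 the neighbours differed by −0.47 in KO#1 and −0.13 in KO#2, leaving 0.0047 and −0.81 (adjusted p = 0.999 and 0.481). For TET3 the neighbours differed by −0.36 in KO#1 and −0.15 in KO#2, leaving −0.11 and −0.47 (adjusted p = 0.962 and 0.464). The neighbours of UHRF1 differed by −0.68 in KO#1 and −0.34 in KO#2, and those of DNMT3A by −0.59 and −0.68. The neighbours of TET1 differed by 0.05 and −0.40, of TET2 by −0.13 and −0.38, of EZH1 by −0.03 and 0.26, of EZH2 by −0.20 and −0.02, and of SUZ12 by 0.04 and −0.09 in KO#1 and KO#2. These KO#2 values moved when replicate 1 was left out. Without it the neighbours' difference in KO#2 was 0.33 for DNMT3B, −0.59 for DNMT1, −0.41 for TET3, −0.79 for UHRF1, −0.45 for DNMT3A, 0.05 for TET1, 0.11 for TET2, −0.16 for EZH1, −0.29 for EZH2 and 0.05 for SUZ12. The genes' own KO#2 differences without it were 0.80 for DNMT3B, −0.92 for DNMT1 and −0.68 for TET3. The differences left after subtraction, given above, were taken with all libraries. The copy number of these chromosome stretches was not analysed here.

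Among 11 lists of partner and related genes, with 134 tested genes, 0 were called in KO#1, KO#2, their mean or between the guides by limma with all libraries. At an unadjusted p under 0.05 there were 7 of 134 in KO#1 and 12 of 134 in KO#2, where 11.3% and 13.5% of all tested features had such a p. Without KO#2 replicate 1, 8 of 134 were called in KO#1 (5.97%, where 12.3% of all features were called) and 3 of 134 in KO#2 (2.24%, where 8.02% were called). The genes named next as risen or fallen did not pass the test with all libraries and no weights or correction. They passed without that library and, in KO#1, also with estimated sample weights and with KO#1 and sgControl alone in the fit, except AHCY, which passed in neither setting in KO#1. With all libraries and a trend on GC content removed, KDM2B, IDH2, SMUG1, GADD45B, MTRR and E2F7 passed in KO#1. In that setting SMUG1, AHCY and SETD1B passed in KO#2. With estimated sample weights KDM2B, SMUG1, GADD45A, GADD45B, MTRR, AHCY, SETD1B and E2F7 passed in KO#2, and IDH2 did not.

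Partners of active demethylation gave 4 of these calls. IDH2, the mitochondrial isocitrate dehydrogenase that makes the TET cosubstrate 2-oxoglutarate, had a signal of 1131, 1449 and 1165 in KO#1, 1521, 852 and 622 in KO#2 and 614, 405 and 490 in sgControl. All 6 KO libraries were above all sgControl libraries, as for 6.61% of tested features. IDH2 rose in KO#1 by 1.32 (SE 0.216, adjusted p = 0.00394) and had 0.55 (adjusted p = 0.206) in KO#2 on the log2 scale, the second 0.91 (adjusted p = 0.305) with all libraries. SMUG1, a glycosylase that removes uracil and 5-hydroxymethyluracil, had 280, 269 and 235 in KO#1, 544, 217 and 235 in KO#2 and 129, 170 and 127 in sgControl, again without overlap, and rose in KO#1 by 0.88 (SE 0.203, adjusted p = 0.0210). GADD45A, a stress-induced protein linked to DNA demethylation, rose in KO#1 by 0.93 (adjusted p = 0.0304), and its relative GADD45B fell by 1.08 in KO#1 (adjusted p = 0.0174). Without KO#2 replicate 1 the KO#2 differences were 0.67 (adjusted p = 0.106) for SMUG1, 0.89 (adjusted p = 0.0699) for GADD45A and −0.82 (adjusted p = 0.0980) for GADD45B. With all libraries these KO#2 differences were 1.10, 0.74 and −0.31 in the same order. With all libraries the 4 had adjusted p-values in KO#1 of 0.117 for IDH2, 0.432 for SMUG1, 0.246 for GADD45A and 0.359 for GADD45B. With the median of neighbouring genes removed, the KO#1 difference was 0.69 (adjusted p = 0.207) for IDH2, 1.07 (adjusted p = 0.0544) for SMUG1, 1.06 (adjusted p = 0.386) for GADD45A and −0.53 (adjusted p = 0.538) for GADD45B. The median of the 14 tested genes of this list was 0.18 in KO#1 and 0.21 in KO#2 with all libraries.

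The cycle that supplies S-adenosylmethionine, the methyl donor of DNMTs and of EZH2, included MTRR and AHCY. MTRR, the reductase that keeps methionine synthase active, had a signal of 375, 315 and 362 in KO#1, 214, 372 and 401 in KO#2 and 661, 659 and 730 in sgControl. All 6 KO libraries were below the lowest sgControl library, as for 5.9% of tested features. Without KO#2 replicate 1 MTRR fell by 0.96 in KO#1 (SE 0.168, adjusted p = 0.00557) and by 0.82 in KO#2 (SE 0.188, adjusted p = 0.0273). With all libraries its values were −0.96 (adjusted p = 0.219) and −1.10 (adjusted p = 0.133). With the median of neighbouring genes removed they were −0.077 (adjusted p = 0.979) and −0.064 (adjusted p = 0.930), so that most of the MTRR difference was shared by the genes beside it. AHCY, which clears the product S-adenosylhomocysteine, rose for the mean of both guides by 0.74 (adjusted p = 0.0466) without KO#2 replicate 1, and had 0.57 (adjusted p = 0.156) in KO#1 and 0.90 (adjusted p = 0.0713) in KO#2. With the neighbours' median removed AHCY differed by 0.12 (adjusted p = 0.955) in KO#1 and 0.39 (adjusted p = 0.523) in KO#2.

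Of the 25 tested subunits of Polycomb repressive complex 1, 0 were called with all libraries, and 1 with each guide without KO#2 replicate 1, beside 12.3% of all features in KO#1 and 8.02% in KO#2. KDM2B, which brings a form of that complex to unmethylated CpG islands, had a signal of 212, 193 and 195 in KO#1, 478, 166 and 190 in KO#2 and 423, 306 and 323 in sgControl. The KO libraries other than KO#2 replicate 1, the highest of all 9, were below every sgControl library, and without that one KDM2B fell by 0.79 in KO#1 (SE 0.199, adjusted p = 0.0300) and by 0.96 in KO#2 (SE 0.222, adjusted p = 0.0281). With all libraries KDM2B differed by −0.79 (adjusted p = 0.548) and −0.49 (adjusted p = 0.619), and with the median of neighbouring genes removed by −0.11 (adjusted p = 0.950) and −0.057 (adjusted p = 0.930). Of 11 other tested subunits of Polycomb repressive complex 2, 0 were called and 0 had an unadjusted p under 0.05 against sgControl. Such a p was found for 11.3% of all tested features in KO#1 and 13.5% in KO#2. The largest mean differences among them were those of JARID2, 0.37 (adjusted p = 0.896) in KO#1 and 0.36 (adjusted p = 0.672) in KO#2, and of C17orf96, −0.0021 and 0.57 (adjusted p = 1.00 and 0.665), the KO#2 values 0.16 and −0.14 without KO#2 replicate 1. SETD1B, a methyltransferase of histone H3 lysine 4, fell by 1.47 in KO#2 (SE 0.274, adjusted p = 0.0116) without KO#2 replicate 1. It was the 1 call among 14 trithorax and related genes, beside 8.02% of all features called in KO#2 in that setting. In KO#1 SETD1B differed by −0.78 (adjusted p = 0.0691) without that library. With all libraries it differed by −0.87 (adjusted p = 0.470) in KO#2, and with the neighbours' median removed by −0.34 (adjusted p = 0.641). Its signal was 588, 590 and 499 in KO#1, 1200, 244 and 485 in KO#2 and 998, 881 and 990 in sgControl.

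No gene was called among 7 tested genes that remove Polycomb marks, 6 cofactors of DNA methylation, 8 methyl-CpG readers and 10 genes of histone H3 lysine 9 methylation, with or without KO#2 replicate 1. PCNA, the replication clamp that DNMT1 binds, had 2658, 2987 and 1614 in KO#1, 824, 3527 and 1195 in KO#2 and 937, 1604 and 933 in sgControl. All KO#1 libraries were above the highest sgControl library, and the difference was 1.06 (SE 0.513, adjusted p = 0.496) in KO#1. LIG1, the replication ligase that UHRF1 binds, differed by 0.26 (adjusted p = 1.00) in KO#1 and 0.29 (adjusted p = 0.823) in KO#2, the second −0.26 without KO#2 replicate 1. ASXL2, a partner of the histone H2A deubiquitinase BAP1, differed by −0.56 (adjusted p = 0.811) and −1.03 (adjusted p = 0.340), and MYSM1, another such deubiquitinase, by 0.02 (adjusted p = 1.00) and −1.40 (adjusted p = 0.555), the KO#2 values −0.48 and 0.11 without KO#2 replicate 1. The readers MBD4 and MBD2 differed by −0.43 (adjusted p = 0.987) and −0.20 (adjusted p = 0.989) in KO#1 and by −1.27 (adjusted p = 0.512) and −0.87 (adjusted p = 0.325) in KO#2, the last pair −0.14 and −0.51 without KO#2 replicate 1. SUV39H1, a histone H3 lysine 9 methyltransferase, differed by 0.03 (adjusted p = 1.00) and 1.10 (adjusted p = 0.601), and CBX5, which binds that mark, by −0.06 (adjusted p = 1.00) and −0.86 (adjusted p = 0.588), the KO#2 values 0.24 and 0.066 without KO#2 replicate 1. Of the 29 proliferation genes, E2F7, an E2F repressor, rose in KO#1 by 1.64 (adjusted p = 0.0275) without KO#2 replicate 1 and had 1.27 (adjusted p = 0.121) in KO#2. It was the 1 gene of this list called in KO#1 in that setting, where 12.3% of all features were called. The median over the list was 0.10 in KO#1 and 0.10 in KO#2 with all libraries.

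**Figure D4:**
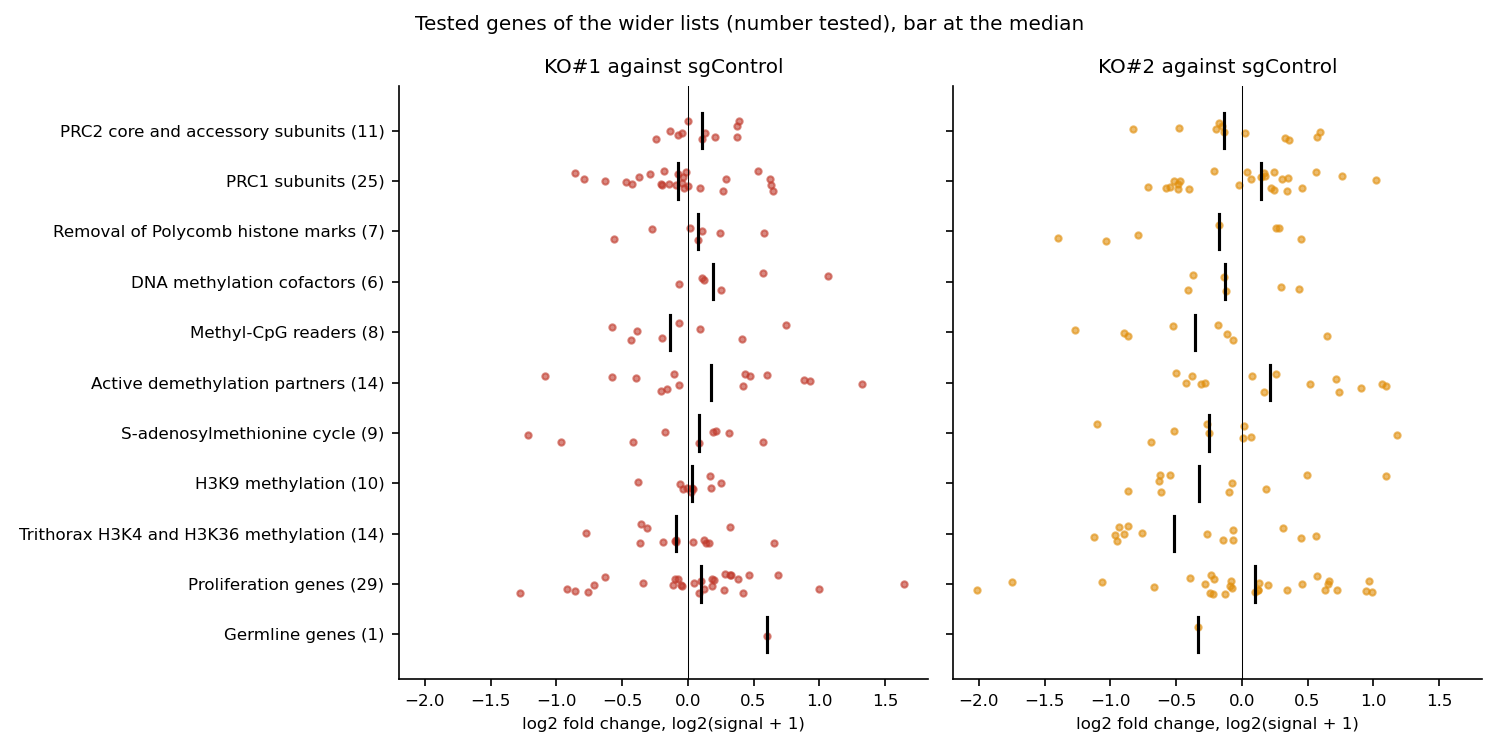
Log2 fold change (x axis) of every tested gene of the 11 lists (rows, number tested in brackets), for KO#1 and KO#2 against sgControl with all 9 libraries; black bars are medians. No list has a called gene, and medians with at least 6 tested genes lie between −0.13 and 0.19 in KO#1 and between −0.51 and 0.21 in KO#2.

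Genes that are active in the germline and commonly methylated in somatic cells stayed at or near 0. Of 20 such genes in the table, 11 were listed at 0 in every library, 7 had a highest signal under 10, and 2 reached at least 10. MAEL, a germline gene of the piRNA pathway, reached 12.9 in the KO libraries and 0.556 in sgControl, under the filter for testing. TEX15, needed in male meiosis, had 642, 1389 and 619 in KO#1, 83.9, 1246 and 749 in KO#2 and 364, 698 and 622 in sgControl. Its groups overlapped, with differences of 0.60 (SE 0.831, adjusted p = 0.970) in KO#1 and −0.33 (adjusted p = 0.867) in KO#2, the second 0.84 (adjusted p = 0.260) without KO#2 replicate 1. DNA methylation and histone marks themselves were not measured.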

How the data were processed

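RNA of 9 ACHN libraries (3 groups of 3, grouped by the condition in the labels) was purified on RNeasy columns, made into strand-specific libraries and read as paired ends on a NextSeq500, per the labels' protocols. The deposited table holds 1 signal per gene name and library, which the authors quantile-normalized, per the table's own name: 0 sorted ranks differ between libraries. The submitters' processing notes name mm10, which is a mouse genome, while the gene names are human. The sources used here name neither aligner nor counter, nor how strand was handled. Overlapping genes are therefore uncertain. Values were read as log2(signal + 1), a scale that understates changes of low genes, and features with a mean of at least 10 were tested. Since quantile-normalized signal holds no counts, no count model was used. limma 3.58.1 (R 4.3.3) fitted 1 model of 3 groups with a variance trend, two-sided, with Benjamini-Hochberg adjustment over 12985 features and a call at adjusted p under 0.05; the procedure was tested on simulated data. SE is moderated. Ratios of related genes were tested by exact permutation over libraries. Alternatives were the pseudocount (0.1 and 10), the filter (none and 100), no trend, estimated sample weights, the compared groups alone, each library left out, median of ratios scaling, and removal of neighbouring-gene medians or of a trend on GC content (loess, span 0.4, GENCODE v29). Leaving out replicate 2 of each group and a proliferation covariate were added after seeing the data. The members and lists were chosen with earlier results of these data known. Named are ELOVL5, the members and, of each list, up to 4 genes called in KO#1, KO#2 or their mean with all libraries or without KO#2 replicate 1, or else the 2 with the largest mean difference. Values of some genes that these rules name are not reported here. Sequences came from RefSeq. No sample column was left unused (0).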

Additional observations from a re-analysis of the deposited data

How the results depend on the processing

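No paired analysis was possible because the labels give no replicate numbers. The counts of members called, 0 in each comparison, became 1 in KO#1 and 1 for the mean of both guides with estimated sample weights (DNMT3B in each) and were 0 in all other settings. Of 460 alternative fold changes of the members and ELOVL5, 425 kept their direction and side of the threshold, 8 kept the direction and passed it, and 27 changed sign; of 838 of the other named genes the numbers were 753, 45 and 40. The calls over all features moved with 1 library: over the leave-one-out fits they numbered 96 to 1592 in KO#1, 95 to 1042 in KO#2, 155 to 1897 for the mean and 0 to 13 between the guides, highest without KO#2 replicate 1; with sample weights they were 2765, 1293, 2808 and 24, and without replicate 2 of each group 34, 42, 65 and 0. The cause was not tested for any of the changes of sign below. Depth limits are unknown, since quantile-normalized signal keeps no read numbers.

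Leaving out 1 library in turn turned the sign of these differences. In KO#1 the range was −0.60 to 0.32 for UHRF1, −0.27 to 0.080 for DNMT3A, −0.27 to 0.026 for TET2, −0.47 to 0.26 for EZH2, −0.18 to 0.15 for C17orf96, −0.13 to 0.15 for MYSM1, −0.060 to 0.63 for LIG1, −0.75 to 0.54 for SUV39H1 and −0.23 to 0.18 for CBX5. In KO#2 it was −0.84 to 0.075 for UHRF1, −0.57 to 0.13 for DNMT3A, −0.58 to 0.021 for TET1, −0.085 to 0.41 for EZH1, −0.97 to 0.021 for EZH2, −1.30 to 0.12 for SUZ12, −0.14 to 1.06 for C17orf96, −2.20 to 0.11 for MYSM1, −0.17 to 0.87 for PCNA, −0.26 to 0.81 for LIG1, −0.82 to 0.091 for GADD45B, −1.51 to 0.066 for CBX5 and −1.10 to 0.84 for TEX15. For the ratio of EZH2 to EZH1 the range was −0.57 to 0.44 and for TET3 to TET2 −0.29 to 0.16.

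With the median of neighbouring genes removed, the sign turned in KO#1 for DNMT1 (0.0047), UHRF1 (0.50), DNMT3A (0.54), TET2 (0.0060), EZH2 (0.026), C17orf96 (0.080), ASXL2 (0.020), MYSM1 (−0.11), SUV39H1 (−0.078) and CBX5 (0.075), in KO#2 for DNMT3A (0.38), TET1 (0.11), EZH1 (−0.14) and LIG1 (−0.079), and for the ratio of EZH2 to EZH1 (0.025). With GC content removed it turned in KO#1 for C17orf96 (0.11) and MYSM1 (−0.067), in KO#2 for TET1 (0.11) and TEX15 (0.31), and for the ratio of TET3 to TET2 (−0.18). With sample weights it turned in KO#1 for EZH2 (0.0008), C17orf96 (0.076) and CBX5 (0.027), and in KO#2 for TET1 (0.20), MYSM1 (0.0035), LIG1 (−0.29) and TEX15 (0.64). Median of ratios scaling turned MYSM1 in KO#1 (−0.0024), a pseudocount of 10 turned SUV39H1 in KO#1 (−0.050), and the proliferation covariate turned SUV39H1 in KO#1 (−0.0001). Leaving out replicate 2 of each group turned UHRF1 (0.0037) and CBX5 (0.0087) in KO#1.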

Other observations

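Across the 9 libraries the most alike profiles among the members, by the root mean square difference of log2(signal + 1) values centred on each gene's mean, were those of DNMT3A and TET3 (0.322), DNMT3A and EZH1 (0.368) and TET3 and EZH1 (0.402), followed by EZH2 and SUZ12 (0.421) and DNMT1 and UHRF1 (0.439). These pairs share their libraries, KO#2 replicate 1 included, and the values are a description with no test.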
